A study of Mus musculus with 147 samples.

Results

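The genes of the unfolded protein response and the heat shock response were followed in single renin cells of the mouse kidney. They are 39 genes given by symbol, of 35438 genes in the count tables, and all 39 were found there. Of these, 22 make up the endoplasmic reticulum (ER) branch, which holds the sensors and transcription factors of the unfolded protein response with the chaperones of the ER lumen, and 17 make up the heat shock branch, which holds *Hsf1* and the chaperones of the cytosol and of mitochondria. The rule that names them uses no measured value, but the list was chosen with earlier results of these data known. The study that reported these cells had already named *Ddit3* among the transcription factors higher in Renin-null cells.

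The cells came from adult C57BL/6 mice that carried the Ren1c-YFP transgene, in which regulatory sequence of the renin gene drives yellow fluorescent protein, and YFP-positive cells were sorted from the kidney cortex and captured one to a well on the Fluidigm C1 System. WT renin cells (51 cells, 1 library) had an intact *Ren1c* gene, and Renin-null cells (96 cells, libraries YFP1 and YFP2 of 48 cells each) were Ren1c-/- Ren1c-YFP, so that no cell of the animal makes renin from this gene. Mice with the *Ren1c* deletion received saline injections for 5 days after birth. Cells of each genotype were pooled from several mice, no mouse or capture is named for a cell, and the reporter marks cells that use the renin regulatory sequence whether or not they are juxtaglomerular cells.

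Each genotype was therefore 1 sample. No test between genotypes was possible, every value below describes these libraries, and the effects of genotype, capture, library and mouse cannot be told apart. The unit is the CPM, counts per 1000000 counts of a well or of the summed wells of a genotype. WT wells held 26401 to 17124854 counts (median 1525972) and Renin-null wells 3628 to 14505243 (median 4107950). The labels could be checked on *Ren1*, which stood at 96023 CPM in the summed WT cells, with a count in 51 of 51, and at 0.135 CPM in the Renin-null cells. Transcripts of the mitochondrial genome took a median share of 60.4% in WT wells and 12.4% in Renin-null wells. In 4 pairs of Renin-null wells the profiles were close to identical (Pearson r of log2(CPM + 1) across genes from 0.974 to 0.987, against 0.896 for the next pair), which leaves 92 wells when each pair is counted once. Since 3 of these 4 pairs have one well in YFP1 and the other in YFP2, the libraries cannot be taken as fully separate.

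Proteins that enter the ER are folded by luminal chaperones, and when unfolded protein builds up there, 3 membrane sensors start the unfolded protein response. IRE1 (gene *Ern1*) splices the mRNA of *Xbp1* into the form that encodes an active factor, PERK (*Eif2ak3*) slows translation and favours that of ATF4, and ATF6 is cut to release a factor that enters the nucleus. In the cytosol, misfolded protein releases HSF1, which switches on heat shock genes. Renin is a secreted protein that passes through the ER, and a renin cell stores it in granules, so the ER branch is part of the ordinary equipment of this cell.

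Factors of both responses act through short elements near the start of their targets, and the sequences are shown here because the elements divide the members by branch. Of the 39 members, 31 were matched by symbol in the RefSeq promoter table of GRCm38.p6, which gives 250 bases before and 50 bases after the start for 27025 genes. *Atf6*, *Manf*, *Hsf1*, *Hspa8*, *Hsp90aa1*, *Hsp90ab1*, *Cryab* and *Hspa9* had no entry. The ER stress element was searched on both strands as CCAAT, 9 bases of any kind, and CCACG. It was found in 7 of 20 ER members (35.0%), in 0 of 11 heat shock members and in 0.137% of all genes of the table. In the lines below the element is in capitals, with 5 bases to either side, 5′ to 3′ on the strand of the gene. *Hsp90b1* held 2 matches, of which the one nearer to the start is shown.
Hspa5 (chr2:34772020-34772048, plus strand): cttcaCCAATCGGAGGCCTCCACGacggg
Hsp90b1 (chr10:86705528-86705556, minus strand): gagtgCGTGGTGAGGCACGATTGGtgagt
Dnajc3 (chr14:118937822-118937850, plus strand): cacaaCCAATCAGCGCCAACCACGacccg
Calr (chr8:84847070-84847098, minus strand): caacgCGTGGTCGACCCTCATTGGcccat
Canx (chr11:50325795-50325823, minus strand): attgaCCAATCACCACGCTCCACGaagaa
Creld2 (chr15:88819515-88819543, plus strand): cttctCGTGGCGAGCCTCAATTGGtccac
Pdia6 (chr12:17266486-17266514, plus strand): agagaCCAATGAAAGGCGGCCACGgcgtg

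The heat shock element was searched as GAANNTTC or TTCNNGAA, each of which reads the same on the other strand. It was found in 9 of 11 heat shock members (81.8%), in 1 of 20 ER members (*Eif2ak3*) and in 17.0% of all genes. In 7 of the 9 the match lay before the start, and those stretches of 30 bases follow with each match of 8 letters in capitals. Matches may overlap where GAA or TTC is shared, as in the 3 matches of *Hspd1*.
Hspa1a (chr17:34972242-34972271, minus strand): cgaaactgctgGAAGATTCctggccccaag
Hspa1b (chr17:34959324-34959353, minus strand): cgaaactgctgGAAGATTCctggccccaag
Hsph1 (chr5:149636351-149636380, minus strand): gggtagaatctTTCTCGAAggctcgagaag
Dnaja1 (chr4:40722333-40722362, plus strand): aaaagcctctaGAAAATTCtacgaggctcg
Hspb1 (chr5:135887801-135887830, plus strand): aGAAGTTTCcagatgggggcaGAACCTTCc
Hspd1 (chr1:55088053-55088082, minus strand): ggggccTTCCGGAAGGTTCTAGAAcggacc
Hspe1 (chr1:55088053-55088082, plus strand): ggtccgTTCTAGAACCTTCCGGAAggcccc

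The printed stretches of *Hspa1a* and *Hspa1b* are the same 30 bases, as the genes are near-identical copies. *Hspd1* and *Hspe1*, which encode the partners HSP60 and HSP10, start back to back on chromosome 1, and their lines are opposite strands of the same 30 bases. The stretches of *Hspa5*, *Hsph1*, *Dnaja1* and *Hspd1* lie wholly or partly inside the gene as GENCODE M21 draws it, since its longest transcripts start further upstream, and the other stretches lie outside. TGACGTGG, a sequence bound by ATF6 and XBP1, was in no member and in 0.714% of all genes, and TGATGNAA, the core of the C/EBP-ATF element through which ATF4 and CHOP act, was in *Trib3*, *Chac1* and *Herpud1* and in 4.51% of all genes. A match is a description of the letters in this window.

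Counts were summed over the cells of each genotype and compared as a log2 ratio of CPM, Renin-null over WT. Ratios were read for the 7554 genes whose CPM, averaged over the genotypes, was at least 10. Since the median of these genes was 0.66 and not 0, each ratio is given as its distance from that median, called here the relative log2 ratio. A gene was called higher or lower when it lay at least 1 above or below the median. By this rule 33.9% of all genes compared were higher and 30.8% were lower, with quartiles at -1.34 and 1.84, so a distance of 1 is ordinary in these libraries. When the call had to be made in each Renin-null library by itself, 23.4% of all genes were higher and 20.9% lower, and with the highest cell of each gene in each genotype left out, 37.0% and 33.6%.

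Of the 22 ER members 17 were compared, and 6 were higher (35.3%), 3 lower (17.6%) and 8 in between. Their median relative log2 ratio was 0.57, with quartiles at -0.41 and 1.195. Of the 17 heat shock members 16 were compared, and 4 were higher (25.0%), 5 lower (31.2%) and 7 in between, with a median of 0.10 and quartiles at -1.51 and 0.70. The share of higher members was thus close to the share among all genes in the ER branch and below it in the heat shock branch, while the share of lower members was below that of all genes in the ER branch and near it in the heat shock branch. In both libraries separately, 6 ER members were higher and 1 lower, and 3 heat shock members were higher and 3 lower. The heat shock median lay 0.47 under the ER median, and under the difference of mean log2(CPM + 1) this order turned, with the heat shock median 0.20 above. Of the 6 compared ER members with an ER stress element 2 were higher and 0 lower, and of the 8 compared heat shock members with a heat shock element 3 were higher and 1 lower, against 33.9% and 30.8% of all genes. The shares of higher members were thus near the background.

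**Figure D1:**
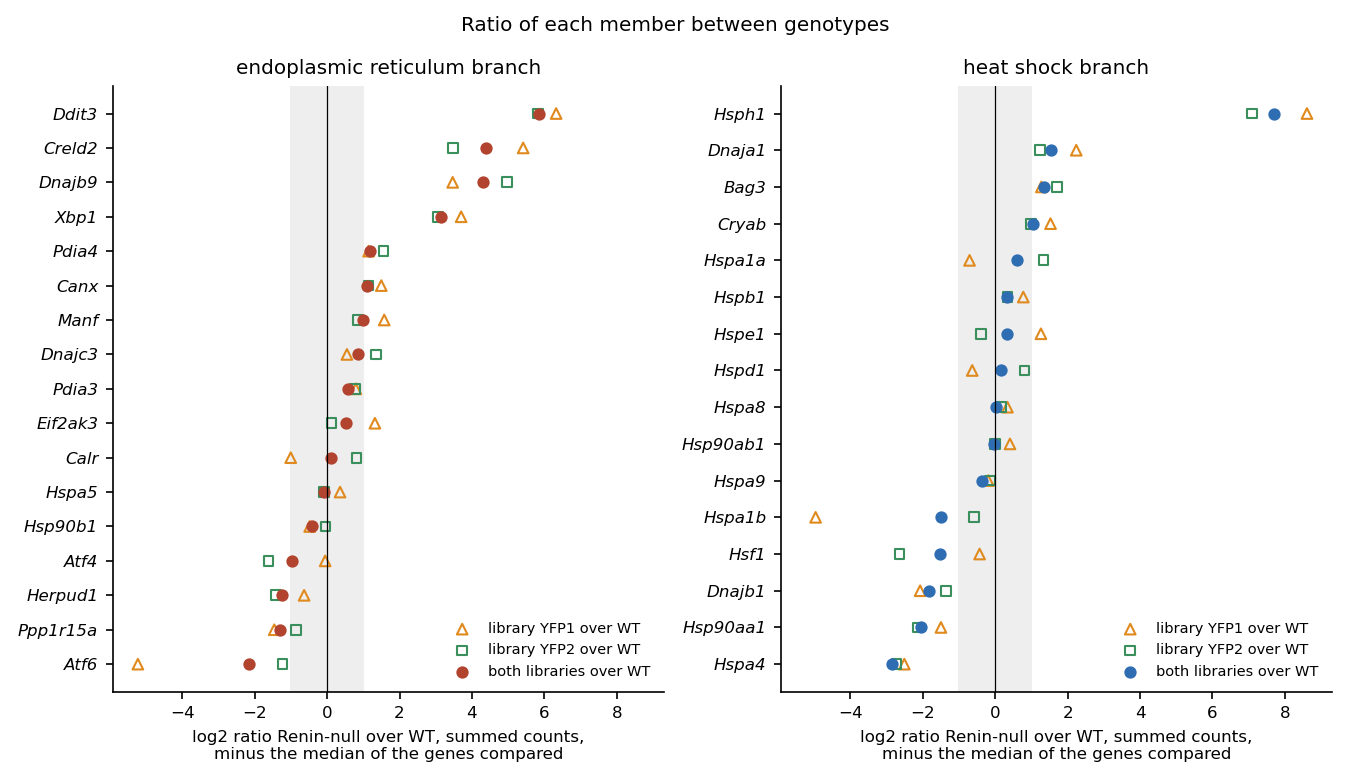
Each row is a compared member, 17 of the ER branch and 16 of the heat shock branch. The x axis is the log2 ratio of summed counts, Renin-null over WT, minus the median of the 7554 genes compared, for both Renin-null libraries together (filled points), YFP1 (triangles) and YFP2 (squares), each against its own median. The grey band spans -1 to 1, and *Ddit3* at 5.84 and *Hsph1* at 7.71 lie farthest to the right.

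The 6 members under the CPM limit were not counted. *Ern1* had 0 counts in WT cells and 532 in Renin-null cells, of which 72.9% came from 1 well. Against a floor of 3 counts over the WT cells its level was at least 87.999-fold higher, on 1.33 CPM in Renin-null cells. The same fold was 38.2 with YFP1 and 129.6 with YFP2 alone, and 23.8 with the highest well left out. *Hspb8*, a small heat shock protein that works with BAG3, had 0 WT counts and 2039 Renin-null counts, with 78.7% from 1 well. Against the same floor it was 337-fold higher, a log2 ratio of 8.398 with an interval that starts at 8.098. Its fold against the floor was 710.1 with YFP1 and 26.1 with YFP2 alone, and 71.8 with the highest well left out. *Chac1*, which degrades glutathione and is induced by ATF4, had 0 and 29 counts, all 29 of them in YFP2, and *Trib3*, a pseudokinase that dampens ATF4 signalling, had 0 in every cell. *Sdf2l1*, a partner of BiP, had 5 and 177 counts, and *Pdia6*, a disulfide isomerase, had 30 and 36. With a count of 0, the share of cells that hold a count could still reach 6.98% of WT cells and, for *Trib3*, 3.77% of Renin-null cells (exact Clopper-Pearson interval). Intervals of a share of cells cover the counting of these wells only, take each well as separate although 4 pairs are near-identical, and say nothing of the spread between mice or of the genotypes.

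Among the compared sensors and factors, the largest ratio in the summed counts of all cells belonged to *Ddit3*, which encodes CHOP, the factor that promotes cell death under lasting ER stress (GRCm38, chr10:127290774-127296288, with a second overlapping locus of the same symbol in GENCODE M21). Its counts were 165 in WT and 30213 in Renin-null cells, or 0.834 and 75.8 CPM, a relative log2 ratio of 5.84 (6.33 in YFP1, 5.82 in YFP2). Before the median was taken off, the log2 ratio was 6.51 with an exact conditional 95% interval of 6.285 to 6.735, which covers counting error only. In WT cells the lowest and the median were 0 and the highest was 13.4 CPM, and in Renin-null cells these were 0, 0.502 and 1793 CPM. Only 2 of 51 WT cells held a count (3.92%, 95% interval 0.479 to 13.5%), and 164 of their 165 counts came from 1 well, while 66 of 96 Renin-null cells did (68.8%, 58.5 to 77.8%), 32 of 48 in YFP1 and 34 of 48 in YFP2. At least 10 counts were held by 36 Renin-null cells and 1 WT cell. The groups overlapped from 0 to 13.4 CPM, but no WT cell reached 100 CPM and 14 Renin-null cells did, 6 of YFP1 and 8 of YFP2. These are 13 wells when near-identical pairs are counted once, and 1 of them reached this level on a single count. Some of the 14 failed the limits of good quality given below. They were cells with 70.6%, 73.3%, 67.6% and 34.7% mitochondrial counts, and the cell on a single count, which held 9102 counts in all. With the highest cell of each genotype left out, WT cells held 1 count and the relative log2 ratio was 11.97. Before the median was taken off, that value was 13.57 with an exact conditional 95% interval of 11.09 to 18.87.

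*Xbp1* (chr11:5520659-5525893) was the other factor that was higher, at 9.00 CPM in WT cells and 127.05 CPM in Renin-null cells, a relative log2 ratio of 3.16. A count was present in 20 of 51 WT cells, with a highest cell of 155 CPM, and in 60 of 96 Renin-null cells, with a median of 0.499 and a highest cell of 3479 CPM. At least 10 counts were held by 3 WT and 23 Renin-null cells. The counts sum all forms of the mRNA, so the share spliced by IRE1 is not known. *Atf4* (chr15:80255184-80257541), the factor made under PERK signalling, stood at 158 and 127.6 CPM, a relative log2 ratio of -0.97, with -0.06 in YFP1 and -1.62 in YFP2. It had a count in 35 of 51 WT cells, with a median of 1.11 and a highest cell of 1622 CPM, and in 49 of 96 Renin-null cells, with a median of 0.109 and a highest cell of 1584 CPM, so its cells covered the same range in both genotypes. The transcript level does not show the translation step through which ATF4 is controlled.

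*Atf6* (chr1:170704674-170867771) was the lowest member of its branch, at 87.8 CPM in WT cells and 31.4 CPM in Renin-null cells, with a relative log2 ratio of -2.15. A single cell supplied 85.004% of the WT counts and another 68.2% of the Renin-null counts, the highest cells reached 1908 and 1419 CPM, and the median cell of each genotype was at 0. With these cells left out the value was -1.995, and it was -5.23 in YFP1 and -1.235 in YFP2. *Eif2ak3*, which encodes PERK, stood at 6.21 and 14.2 CPM with a relative log2 ratio of 0.53 (1.32 in YFP1, 0.12 in YFP2), and 99.02% of its WT counts came from 1 cell. Its direction was not settled, since the value was -2.88 for the mean over cells of CPM and 4.91 with the highest cells left out. The sensors were thus carried by few cells, with a count of *Eif2ak3* in 9 of 51 WT and 16 of 96 Renin-null cells.

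Both compared genes of feedback and degradation were lower in the summed counts. *Ppp1r15a* (chr7:45522916-45526268), which encodes GADD34, the phosphatase subunit that reverses PERK signalling, stood at 1245 CPM in WT cells and 806 CPM in Renin-null cells, a relative log2 ratio of -1.29, and was short of the limit in YFP2 (-1.46 in YFP1, -0.87 in YFP2). It was widespread, with a count in 50 of 51 WT cells (median 18.5, highest 5329 CPM) and in 88 of 96 Renin-null cells (lowest 0, median 31.6, highest 4113 CPM). *Herpud1* (chr8:94386438-94395377), which serves the removal of misfolded ER proteins, stood at 421 and 280 CPM, or -1.25, and was short of the limit in YFP1 (-0.64 in YFP1, -1.42 in YFP2). Its cells ran from 0 through a median of 3.49 to 1683 CPM in WT cells and from 0 through 7.49 to 2757 CPM in Renin-null cells. For both genes the median cell was higher in Renin-null cells although the summed level was lower, and the difference of mean log2(CPM + 1) turned their sign, to 0.13 for *Ppp1r15a* and 0.23 for *Herpud1*.

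Of 8 luminal chaperones and co-chaperones compared, 3 were higher (37.5%) and 0 were lower, with a median of 0.93. The share of higher genes was near that of all genes compared (33.9%). *Creld2* (chr15:88819646-88826683), a secreted factor of the ER stress response, stood at 0.980 CPM in WT cells and 32.5 CPM in Renin-null cells, a relative log2 ratio of 4.39 (5.415 in YFP1, 3.48 in YFP2). It held a count in 4 WT cells (highest 15.1 CPM) and in 25 Renin-null cells (highest 731 CPM), with 94.8% of the WT counts from 1 cell and a median of 0 in both genotypes, and the ratio was 6.99 with the highest cells left out. *Dnajb9* (chr12:44205559-44210326), a DNAJ co-chaperone of BiP that restrains IRE1, stood at 0.803 and 25.3 CPM, or 4.31 (3.47 in YFP1, 4.97 in YFP2), with a count in 2 WT cells (highest 7.79 CPM) and 30 Renin-null cells (highest 540 CPM). Of its Renin-null counts 57.6% came from 1 cell, and with the highest cells left out it was at 3.43. Both genes were near 0 in WT cells and were found in a minority of Renin-null cells. At least 10 counts were held by 1 WT and 8 Renin-null cells for *Creld2* and by 2 and 13 for *Dnajb9*.

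*Canx*, which encodes calnexin, the membrane chaperone of glycoproteins, was the higher member with the broadest detection. It stood at 558 CPM in WT cells and 1886 CPM in Renin-null cells, a relative log2 ratio of 1.09 (1.496 in YFP1, 1.14 in YFP2), and had a count in 47 of 51 and 94 of 96 cells. The WT cells ran from 0 through a median of 7.86 to 3745 CPM and the Renin-null cells from 0 through 471 to 6739 CPM. With the highest cell of each genotype left out the value was 0.56, under the limit.

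*Hspa5* (chr2:34771970-34777547) encodes BiP, the ER chaperone that holds the sensors inactive, and is a standard readout of ER stress. Its summed level was 507.1 CPM in WT cells and 751 CPM in Renin-null cells, a relative log2 ratio of -0.10 (0.36 in YFP1, -0.10 in YFP2), near the median of all genes. The cells ran from 0 through a median of 5.43 to 2489 CPM in WT cells and from 0 through 152 to 3676 CPM in Renin-null cells, and 9 WT and 53 Renin-null cells reached 100 CPM. The value depended on how cells were weighed, as it was 2.18 for the difference of mean log2(CPM + 1) and -0.83 with the highest cells left out. *Hsp90b1*, which encodes GRP94, was at -0.41 (or 361 and 428 CPM), and *Calr*, the calreticulin gene, at 0.10 (104.5 and 178 CPM), with -1.01 in YFP1 and 0.81 in YFP2. *Dnajc3*, an inhibitor of PERK, was at 0.86 and *Manf*, a secreted ER protein, at 0.99, both short of the limit.

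The disulfide isomerases were at 0.57 for *Pdia3* (103.6 CPM in WT, 244 CPM in Renin-null cells) and 1.195 for *Pdia4* (10.8 and 39.3 CPM). For *Pdia4* (chr6:47796141-47813430), 98.7% of the WT counts came from 1 cell and the other 50 WT cells held 29 counts. The median cell was at 0 in both genotypes, the highest WT and Renin-null cells reached 238 and 1948 CPM, and a count was present in 6 WT and 43 Renin-null cells, with at least 10 counts in 2 and 15. With the highest cells left out *Pdia4* was at 5.48, but with the cells of good quality alone, described below, it fell short of the limit.

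In the heat shock branch, *Hsf1* (chr15:76477422-76501913), its transcription factor, was called lower, at 37.4 CPM in WT cells and 20.6 CPM in Renin-null cells, with a relative log2 ratio of -1.53. The libraries differed, with -0.43 in YFP1 and -2.64 in YFP2. A count was present in 13 WT and 29 Renin-null cells, the median cell was at 0 in both, and the highest cells were at 446 and 1161 CPM.

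*Hsph1* (chr5:149614287-149636376), which encodes HSP110, the nucleotide exchange factor of HSP70, had the largest ratio of all members compared. Its counts were 47 in WT cells, all in 1 cell at 3.85 CPM, and 31375 in Renin-null cells, or 0.237 and 78.7 CPM, a relative log2 ratio of 7.71 (8.61 in YFP1, 7.09 in YFP2). In Renin-null cells a count was present in 43 of 96 (44.8%, 95% interval 34.6 to 55.3%), 21 of 48 in YFP1 and 22 of 48 in YFP2, against 1 of 51 in WT (1.96%, 0.0496 to 10.4%). At least 10 counts were held by 13 Renin-null cells and 1 WT cell, so most of these cells held only a few counts. The lowest and the median cell were at 0 in both genotypes, the highest Renin-null cell reached 2104 CPM, and 10 Renin-null cells and 0 WT cells reached 100 CPM. Some of these 10 cells failed the limits of good quality given below. They were the highest cell, with 38.2% mitochondrial counts, and cells with only 3849, 8856 and 56606 counts in all.

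The inducible HSP70 genes had smaller ratios. *Hspa1a* (chr17:34969190-34972156) was at 0.59, or 27.9 CPM in WT cells and 66.6 CPM in Renin-null cells, with -0.71 in YFP1 and 1.34 in YFP2, and *Hspa1b* (chr17:34956436-34959238) was at -1.51, or 18.1 and 10.0 CPM, with -4.96 in YFP1 and -0.585 in YFP2. Their median cell was at 0 or 0.247 CPM, the highest WT and Renin-null cells were at 179 and 1743 CPM for *Hspa1a* and at 536 and 827 CPM for *Hspa1b*. As reads of these copies can be split between them, their sum is the safer value, and it was at 0.07. *Hspa8*, the constitutive HSC70, had a count in 51 of 51 WT and 95 of 96 Renin-null cells and stood at 2170 and 3511 CPM, a relative log2 ratio of 0.03. *Hspa4* (chr11:53259814-53300457), which like *Hsph1* belongs to the HSP110 family, was the lowest heat shock member at -2.84, with 171 CPM in WT cells and 37.9 CPM in Renin-null cells (-2.51 in YFP1, -2.72 in YFP2). Its cells ran from 0 through 0.239 to 2023 CPM in WT cells and from 0 through 0.157 to 629 CPM in Renin-null cells, and 67.4% of the WT counts came from 1 cell.

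The cytosolic HSP90 genes went apart. *Hsp90aa1* (chr12:110690605-110702728), the stress-inducible form, stood at 1308 CPM in WT cells and 503.96 CPM in Renin-null cells, a relative log2 ratio of -2.04 (-1.499 in YFP1, -2.13 in YFP2). It had a count in 51 of 51 WT cells, which ran from 2.19 through a median of 48.7 to 3467 CPM, and in 88 of 96 Renin-null cells, which ran from 0 through 46.0 to 8398 CPM. The median cells were thus nearly level and the ranges overlapped. *Hsp90ab1*, the constitutive form, was at -0.03, with 862 and 1340 CPM.

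The HSP40 co-chaperones also divided. *Dnaja1* (chr4:40722150-40737149) was higher at 1.53 (2.24 in YFP1, 1.24 in YFP2), with 245 CPM in WT cells and 1124 CPM in Renin-null cells. Its cells ran from 0 through a median of 1.54 to 1922 CPM in WT cells and from 0 through 106.7 to 6770 CPM in Renin-null cells, and 8 WT and 48 Renin-null cells reached 100 CPM. *Dnajb1* (chr8:83608193-83612653) was lower at -1.82, with 51.4 and 23.0 CPM, medians of 0 and highest cells at 740 and 535 CPM, and 84.7% of its WT counts came from 1 cell. With the highest cells left out *Dnajb1* was at -0.90, under the limit.

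*Bag3* (chr7:128523616-128546981), which couples HSP70 to autophagy, was at 1.35, with 11.4 CPM in WT cells and 45.9 CPM in Renin-null cells, medians of 0 and highest cells at 184 and 816 CPM. It had a count in 6 WT and 46 Renin-null cells, at least 10 counts in 1 and 18, and 99.7% of the WT counts came from 1 cell. With the highest cells left out it was at 7.99. *Cryab* (chr9:50751325-50756636), the small heat shock protein alpha B-crystallin, which is abundant in muscle, was at 1.03, just past the limit, with 85.6 and 278 CPM. It was short of the limit in YFP2 (1.53 in YFP1, 0.995 in YFP2) and with near-identical wells counted once. Its cells ran from 0 through 0.889 to 696 CPM in WT cells and from 0 through 25.8 to 1357 CPM in Renin-null cells, and with the highest cells left out it was at 0.755. *Hspb1*, which encodes HSP27, was at 0.33. The mitochondrial chaperones were at -0.36 for *Hspa9* (mortalin), 0.17 for *Hspd1* and 0.32 for *Hspe1*, none past the limit in the summed counts. The libraries differed, with -0.635 in YFP1 and 0.81 in YFP2 for *Hspd1*, and 1.26 and -0.385 for *Hspe1*. *Hspe1* thus passed the limit in YFP1, and it did so in some other settings, among them the mean over cells of CPM.

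**Figure D2:**
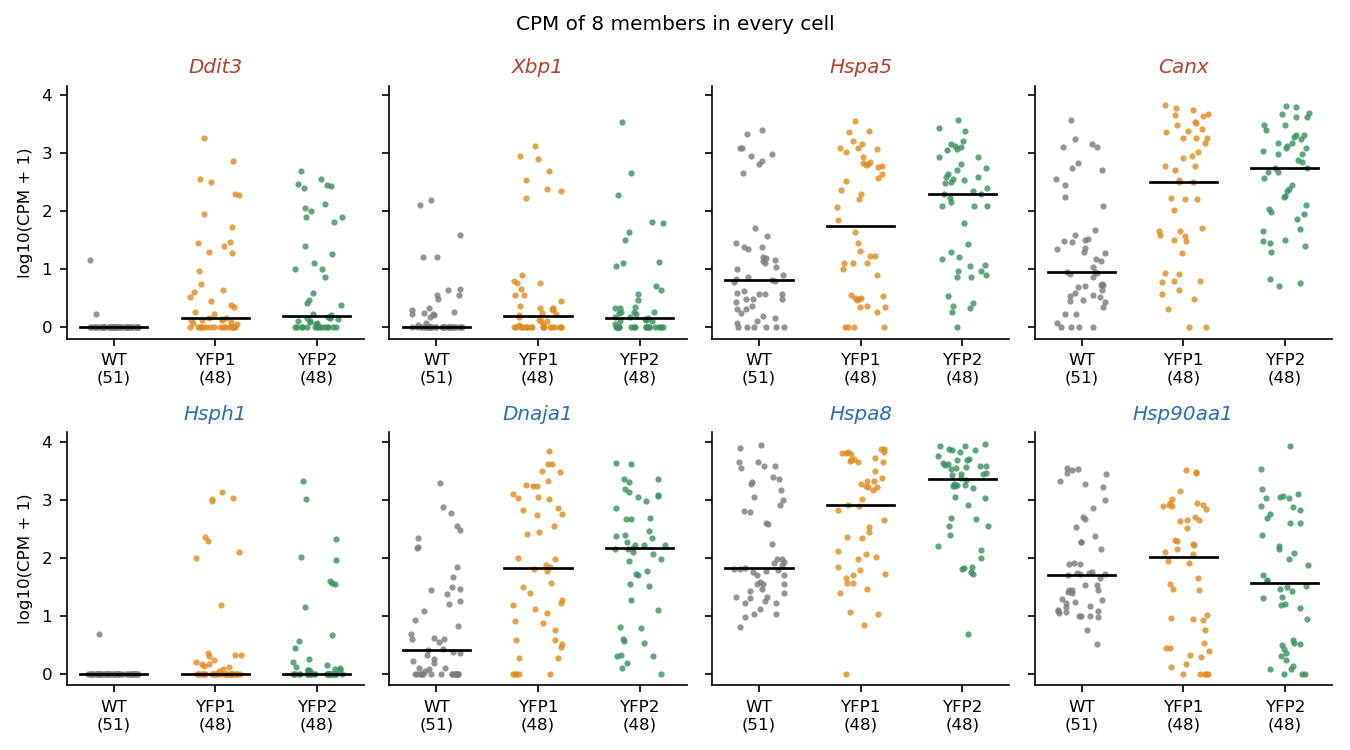
Each point is a cell, by library (51 WT, 48 YFP1 and 48 YFP2 cells), and the y axis is log10(CPM + 1) of the member, with ER members in the upper and heat shock members in the lower row. Bars mark the median cell. *Ddit3* and *Hsph1* are at or near 0 in WT cells and reach 1793 and 2104 CPM in single Renin-null cells, while *Hspa5*, *Hspa8* and *Hsp90aa1* spread over the whole range in every library.

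The members with the largest ratios rested on few WT counts. A single WT well, which had the most genes of any WT well (10791, against 7614 in the next), held the highest WT count of 6 of the 33 members compared, namely *Xbp1*, *Ddit3*, *Creld2*, *Hspa1a*, *Hsph1* and *Bag3*. A single cell supplied more than 50% of the WT counts for 10 of 17 ER and 8 of 16 heat shock members, and more than 50% of the Renin-null counts for 3 and 0. Among all genes compared the highest cell supplied a median of 64.5% of WT counts and 40.2% of Renin-null counts.

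Across cells, each branch was read as the summed CPM of its members, which is by counts and not per length. In the summed cells the ER branch made up 3626 CPM in WT cells and 5203 CPM in Renin-null cells (4960 in YFP1, 5406 in YFP2), and the heat shock branch 5359 and 7635 CPM (7996 and 7334). Relative to the median of all genes these sums were at -0.14 and -0.15 on the log2 scale. Single WT cells ran from 4.62 through a median of 122.2 to 9797 CPM in the ER branch and from 23.0 through 400 to 12460 CPM in the heat shock branch. Renin-null cells ran from 0 through 2929 to 13722 CPM and from 71.8 through 4433 to 16472 CPM. The ranges overlapped almost fully, and what differed was how many cells lay at the low end.

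Low sums were found mostly in cells rich in mitochondrial transcripts. Of the cells with an ER sum under 1000 CPM, 32 of 34 in WT and 26 of 30 in Renin-null cells held more than 25% mitochondrial counts, and for the heat shock sum 31 of 31 and 18 of 20 did. Spearman's rho across cells between the ER sum and the mitochondrial share was -0.76 in WT (n = 51) and -0.76 in Renin-null cells (n = 96), and for the heat shock sum it was -0.77 and -0.74. With the depth of the well, rho was 0.465 and 0.615 for the ER sum and 0.41 and 0.56 for the heat shock sum. These are descriptions, since the sums and the mitochondrial share are parts of the same total. Between the branches rho was 0.85 in WT and 0.65 in Renin-null cells. Among the 15 WT and 57 Renin-null cells of good quality (no fewer than 100000 counts and 1000 genes, and no more than 25% mitochondrial counts), it was 0.35 and 0.07, the median ER sum was 4717 and 5379 CPM, and the median heat shock sum was 6421 and 7857 CPM. In these cells the medians of the genotypes were thus far closer than over all cells. With summed counts of these cells alone, *Canx* (0.97), *Pdia4* (0.075) and *Cryab* (0.86) fell short of the limit, and *Eif2ak3* (7.45) and *Atf4* (-1.09) passed it.

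**Figure D3:**
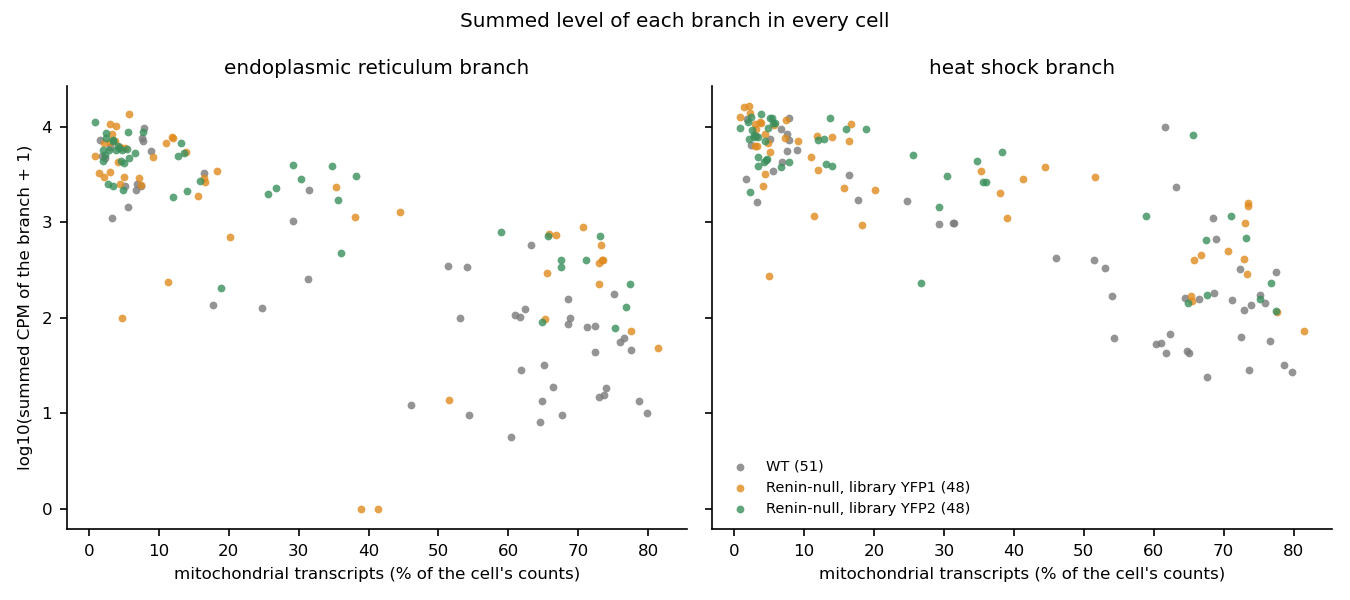
Each point is a cell, coloured by library. The x axis is the share of its counts from 13 mitochondrially encoded genes in percent, and the y axis is log10 of the summed CPM of the ER branch (left) or the heat shock branch (right) plus 1. Most sums lie near 4 on this scale in cells of low mitochondrial share and well below it in cells of high share, of which WT holds more. A few cells of low share also have a low sum.

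Depth was evened out by thinning every cell to 62000 counts, which kept 49 WT and 83 Renin-null cells. A count was then found in a larger share of Renin-null cells for 16 of 17 ER members (94.1%) and 14 of 16 heat shock members (87.5%), and for 76.1% of all genes compared. The median share over ER members was 14.3% in WT and 33.7% in Renin-null cells, over heat shock members 17.3% and 30.7%, and over all genes compared 10.2% and 15.7%. *Ddit3* was found in 2.04% of WT and 34.9% of Renin-null cells, *Hsph1* in 0 WT cells and 19.3% of Renin-null cells, and *Dnaja1* in 32.7% and 74.7%. The reverse order was seen for *Atf6* (14.3% and 10.8%), *Hsp90aa1* (79.6% and 66.3%) and *Hspa9* (26.53% and 26.51%), the last of these level. Thinning does not even out the mitochondrial share, and across the thinned cells rho between this share and the number of members with a count was -0.545 (ER) and -0.66 (heat shock) in WT and -0.47 and -0.47 in Renin-null cells. Its part in the shares of cells was not tested.

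**Figure D4:**
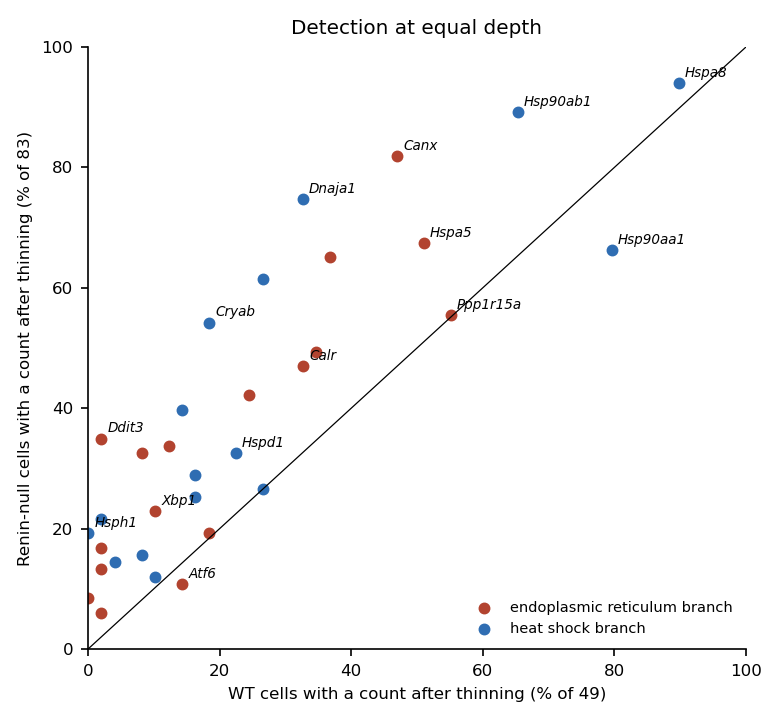
Each point is a compared member, red for the ER branch and blue for the heat shock branch. The x and y axes are the percent of WT cells (of 49) and Renin-null cells (of 83) with at least 1 count after thinning to 62000 counts, and the line marks equal shares. Most members lie above the line, *Ddit3* and *Hsph1* near the left edge, and *Hsp90aa1* at 79.6% and 66.3% lies below it.

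Overlaps between high wells were read beside the number of wells in which each gene was high. Of the 14 Renin-null wells with *Ddit3* at 100 CPM or more and the 10 with *Hsph1* at that level, 1 well held both, 7.14% of the first and 10.0% of the second. Of the 14 wells with *Ddit3*, 11 reached 100 CPM of *Hspa5*, 8 of *Ppp1r15a*, 9 of *Dnaja1*, 2 of *Atf4*, 1 of *Xbp1* and 0 of *Dnajb9*. *Hspa5* was at this level in 53 of 96 Renin-null wells, *Dnaja1* in 48, *Ppp1r15a* in 38, *Atf4* and *Xbp1* in 11 each and *Dnajb9* in 6. Of the 10 wells with *Hsph1*, 1 reached 100 CPM of *Hspa1a* and 1 of *Bag3*, both targets of HSF1, which were at this level in 9 and 7 of 96 wells. With so few wells the overlaps between the rarer members do not show that they were high together or apart. Wells that failed the limits of good quality were kept in these overlaps. The 48 index pairs were used in all 3 libraries.

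Further genes of each pathway stood as follows. Of 21 other genes induced through ATF4 or belonging to the eIF2alpha kinases, 11 were compared, with a median of 0.17, 4 higher and 2 lower. Among all genes compared 33.9% were higher and 30.8% lower. The largest ratios were those of *Vegfa* (7.10), a growth factor for vessels, *Nupr1* (4.15), a stress-induced nuclear protein, and *Aars* (3.32), a tRNA synthetase. The smallest were those of *Asns* (-12.74), asparagine synthetase, of whose WT counts 99.3% came from 1 cell, *Cebpb* (-1.71), a transcription factor, and *Eif2s1* (-0.70), the translation factor that PERK phosphorylates. *Vegfa* was at 2.74 in YFP1 and 8.04 in YFP2, and 59.1% of its Renin-null counts came from 1 cell. YFP2 also held more podocyte, endothelial and fibroblast transcripts, and their part in the *Vegfa* ratio was not tested. With the highest cells left out *Asns* was at -6.02, *Cebpb* at -0.375, short of the limit, and *Eif2s1* at 1.19, with its sign turned. Of 33 other ER folding, translocation and degradation genes 26 were compared, with a median of 0.26, 7 higher and 3 lower, which is below the shares of all genes in both directions. *Sel1l* (4.20), *Spcs3* (4.07) and *Derl1* (2.91), of ER-associated degradation and signal peptide cleavage, were highest, and *Ssr3* (-1.63), *Sec61b* (-1.505) and *Vcp* (-1.40) lowest. These last were each short of the limit in 1 library, *Ssr3* in YFP1 (-0.98) and *Sec61b* (-0.83) and *Vcp* (-0.855) in YFP2. A single cell gave 99.1% of the WT counts of *Spcs3*, 89.7% of those of *Sel1l* and 85.9% of those of *Derl1*.

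Of 37 other cytosolic chaperones and co-chaperones 30 were compared, with a median of -0.08, 8 higher and 9 lower, against 33.9% higher and 30.8% lower among all genes. *Hspa14* (5.15), *Bag5* (4.40) and *Cct4* (3.35), a subunit of the CCT folding ring, were highest, and *Dnaja2* (-3.14), *Cct7* (-2.34), of the same ring, and *Ahsa1* (-2.21), an activator of HSP90, were lowest. Of 10 other mitochondrial chaperones and proteases 9 were compared, with a median of -0.49, 3 higher and 3 lower, near the 33.9% and 30.8% of all genes. *Lonp1* (3.49), *Trap1* (2.83) and *Dnaja3* (1.38) were highest, and *Htra2* (-7.13, with 99.2% of WT counts from 1 cell), *Clpx* (-1.49) and *Clpp* (-1.29) lowest. With the highest cells left out *Lonp1* was at 1.43, *Htra2* at -1.67 and *Clpx* at 1.88, with its sign turned, while *Dnaja3* (0.89) and *Clpx* (-0.48) were short of the limit in YFP1 and *Clpp* (-0.43) in YFP2.

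Stress genes can be induced while tissue is taken apart into single cells, so a list of 20 genes of the response to dissociation, without heat shock genes, was read beside the members. Of the 19 compared, 0 were higher and 5 lower, with a median of -0.60, against 33.9% higher and 30.8% lower among all genes, and its summed level was 13781 CPM in WT cells and 15915 CPM in Renin-null cells, with *Fos* as the largest part. The highest were *Klf2* (0.55), *Klf6* (0.50) and *Socs3* (0.41), and the lowest *Ier2* (-1.92), *Egr1* (-1.22) and *Jund* (-1.20), of which *Egr1* (-0.80) and *Jund* (-0.75) were short of the limit in YFP2. No cells that were spared dissociation were measured, so how far these levels rose in the procedure is not known. Its part in the levels of the members was not tested.

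The smooth muscle markers, which renin cells share, summed to 12812 CPM in WT cells and 13851 CPM in Renin-null cells. *Akr1b7*, another marker of renin cells, had a count in 51 of 51 and 94 of 96 cells and stood at 4528 and 2011 CPM, a relative log2 ratio of -1.83 (-1.73 in YFP1, -1.56 in YFP2). The other renin cell markers read, *Crip1* (-0.72) and *Cd200* (-0.16), were short of the limit in the summed counts of all cells. The summed CPM of *Crip1* was slightly lower in Renin-null cells and that of *Cd200* was higher. Markers of other kidney cells summed to more in Renin-null cells. The 7 proximal tubule markers stood at 29.4 CPM in WT (*Slc5a2* at 0) and 329 CPM in Renin-null cells, with *Slc34a1* as the largest part in WT and *Miox* in Renin-null cells, the 6 markers of the loop, distal tubule and collecting duct at 22.2 and 186 CPM, and the 4 podocyte markers at 86.1 (*Podxl* at 0) and 453 CPM, with *Synpo* as the largest part in both. The podocyte sum was 130.6 CPM in YFP1 and 723 CPM in YFP2, and 1 cell gave 58.1% of the Renin-null counts. The 6 endothelial markers stood at 32.3 (*Cdh5* and *Plvap* at 0) and 215 CPM, mostly *Emcn*. This sum was 33.0 CPM in YFP1, close to WT, and 366 CPM in YFP2, and 1 cell gave 70.2% of the Renin-null counts. The 6 fibroblast markers stood at 9.21 and 807 CPM (241 in YFP1, 1279 in YFP2), mostly *Col1a1* in WT and *Col3a1* in Renin-null cells with *Dpt* at 0 in both, and the 6 macrophage markers at 0.985 and 3.94 CPM, mostly *Ptprc* with *Adgre1* and *C1qb* at 0 in both. The part of RNA from other cells in the ratios of the members was not tested, and fewer cells with a transcript cannot be told apart from less of it per cell in the summed counts.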

How the data were processed

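Per the study's methods, the authors trimmed reads with Trimmomatic 0.39 after FastQC 0.11.5, quantified transcripts with Salmon 0.11.2 on GRCm38.p6 and summed them to genes with tximport (lengthScaledTPM). The values the authors deposited are estimated counts per gene and cell, not normalized for depth, for 51 WT and 96 Renin-null cells. They were rounded, summed by genotype and scaled to CPM. A gene at 0 was set to 3 counts over the genotype. Genes averaging at least 10 CPM were compared, and a call is a distance of at least 1 from their median log2 ratio. Intervals of ratios cover the counting of reads only, and PCR copies cannot be told apart without molecular identifiers. Intervals of shares cover the counting of wells only. No doublet caller was run. Coordinates are from GENCODE M21 and promoters from RefSeq (GRCm38.p6). The members, lists and motifs were chosen with earlier results of these data known. Genes named in full are the 5 largest and 3 smallest ratios of each branch and Ddit3, Atf4, Xbp1, Hspa5, Hsf1, Hspa1a and Hspa1b, and the 3 largest and 3 smallest of each other list. The ratio was tested on simulated data. Alternatives were the mean CPM over cells, the difference of mean log2(CPM + 1), TMM (edgeR 4.0.16), SCTransform (sctransform 0.4.2, Seurat 5.3.0), CPM without mitochondrial counts, each library, a cell filter, thinning, near-identical wells counted once, no CPM limit, and other sets of members. Detection at 100 CPM, the count of cells under 1000 CPM, and calls of single genes in both libraries or with the highest cell left out were added after the data were seen. The ratios and counts of members in each library alone and with the highest cell left out were planned. Python 3.11.15, pandas 2.3.3, scipy 1.17.1 and R 4.3.3 were used. Supplementary lists and the 10x experiment were not used here. Some markers of proximal tubule and podocytes are not reported here, and the sums leave them out.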

Additional observations from a re-analysis of the deposited data

How the results depend on the processing

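No paired analysis was possible because the genotypes come from different mice and no mouse is named for a cell. No test was run. Of the 18 called members, 4 (22.2%, against 13.2% of the 4885 genes called among all) stayed past the limit in all 9 settings of normalization, cells and libraries that can change a distance from the median: Ddit3 (1.86 to 11.97), Hsph1 (1.09 to 10.11, with 0 WT counts in the thinned cells and without the highest cell, where its values depend on the floor of 3 counts) and Dnaja1 (1.24 to 3.22) higher and Hsp90aa1 (-2.81 to -1.09) lower. All 18 kept their sign in 8 of these settings and 16 in the difference of mean log2(CPM + 1), where Ppp1r15a (0.127) and Herpud1 (0.229) turned and 5 of 10 higher and 1 of 8 lower members stayed past the limit. In that setting 8 further members were called higher, namely Hspa5 (2.18), Hsp90b1 (1.74), Dnajc3 (1.11), Manf (1.07), Pdia3 (1.18), Hspa8 (1.88), Hsp90ab1 (2.285) and Hspb1 (2.08).

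Medians of the ER branch, the heat shock branch and their difference, in this order, were 0.774, -0.097 and -0.871 for the mean over cells of CPM, 0.791, -0.083 and -0.874 for SCTransform, 0.818, -0.041 and -0.859 for thinned cells, 0.545, 0.741 and 0.196 (reversed) for the difference of mean log2(CPM + 1), 0.792, 0.073 and -0.719 for YFP1, 0.813, 0.077 and -0.736 for YFP2, and 0.355, -0.340 and -0.694 for every gene with more than 3 counts in a genotype. The cell filter gave 0.462 and -0.039 for the branches, leaving out the highest cell -0.604 for the heat shock branch and -1.164 for the difference, and near-identical wells counted once 0.036 and -0.547. Leaving out the sensors, factors and ATF4 targets gave 0.864 for the ER branch and -0.764 for the difference, leaving out the mitochondrial chaperones 0.030 for the heat shock branch, and summing Hspa1a with Hspa1b 0.074. The count of lower ER members was 0 with the difference of mean log2(CPM + 1), 5 for every gene with more than 3 counts and 1 without the sensors, factors and ATF4 targets, and that of lower heat shock members was 1 with the difference of mean log2(CPM + 1). TMM (factors 0.784 and 1.28) shifted the median of all genes by -0.70, removing mitochondrial counts by -0.16, and neither can change a distance from it. The causes of these changes were not tested.

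The WT total of 197904443 counts came from 51 wells, of which 15 passed the cell filter, so a member held by few WT cells is set by those cells.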
